A study of Mus musculus with 6 samples.

Results

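MHC class II molecules and the dendritic cells that carry them at high density were followed through 10 genes in whole mouse liver. The genes were fixed by symbol. They encode the class II chains H2-Aa, H2-Ab1 and H2-Eb1, the invariant chain Cd74, the transactivator Ciita, and the dendritic cell proteins Flt3, Xcr1, Clec9a, Cd209a and Itgae. All 10 were matched to 1 row each among the 55416 genes of the count table, and all 10 were among the 17083 genes with enough reads to be tested.

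The study sequenced RNA from whole liver of 6 male mice, 3 per genotype, and asked how loss of the receptor tyrosine kinase EphB2 in stellate and other mesenchymal cells alters diet-induced steatohepatitis and scarring. All animals carried Ephb2flox/flox, received tamoxifen on 5 consecutive days at 8 to 10 weeks of age and then ate a choline-deficient, amino-acid-defined high-fat diet for 8 weeks. Fat supplied 45% of the energy of this diet, which held 0.1% methionine and 1% cholesterol. The WT animals had no Cre and the KO animals carried PdgfrbCreERT2, a tamoxifen-inducible recombinase active in cells that use the Pdgfrb promoter, such as stellate cells and pericytes. Dendritic cells, B cells and macrophages, the main class II cells of liver, are not known for using that promoter. No group carried Cre without the floxed allele, so effects of Cre and of the deletion cannot be told apart, and no group on a control diet was analysed here. In whole tissue, fewer cells of a type and less RNA per cell cannot be told apart.

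A class II molecule is a pair of an alpha and a beta chain that shows peptides from taken-up proteins to CD4+ T cells. The invariant chain Cd74 blocks the groove until the pair reaches the endosome, where H2-DM exchanges the last invariant chain fragment for a peptide and H2-O restrains H2-DM. Ciita is the master coactivator of these genes. It does not bind DNA itself but is held at their promoters by RFX, CREB and NF-Y proteins on the conserved X and Y boxes, and interferon-gamma induces it in many cell types. Type 1 conventional dendritic cells carry Xcr1, Clec9a and Itgae and take up dead cells, type 2 cells include those with Cd209a, and both arise under the growth factor receptor Flt3.

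Class II promoters are known for the X and Y boxes through which Ciita acts. Those found are shown because H2-Aa, H2-Ab1, H2-Eb1 and Cd74 had one common profile over the 6 libraries, as described after the promoters. A link between the boxes and that profile was not tested. RefSeq promoters on GRCm38.p6 were found for 6 of the 10 genes (H2-Aa, H2-Eb1, Flt3, Xcr1, Clec9a and Cd209a), and none for H2-Ab1, Cd74, Ciita and Itgae. The stretches below are the 150 bases before the RefSeq gene start, in the direction of transcription, and distances are counted from that start. The GENCODE starts of H2-DMb1 (34153072) and H2-Eb2 (34325665) lie inside the stretches printed for them. Capitals mark the core X box letters AACNGATG, the Y box letters CTGATTGG and the CRE letters TGACGTCA. H2-Eb2 and H2-DMb1, which are class II genes outside the 10, are printed for comparison. H2-Aa is at chr17:34287824-34287973 on the minus strand, H2-Eb1 at chr17:34305717-34305866, H2-Eb2 at chr17:34325525-34325674 and H2-DMb1 at chr17:34153041-34153190, the last 3 on the plus strand.
H2-Aa: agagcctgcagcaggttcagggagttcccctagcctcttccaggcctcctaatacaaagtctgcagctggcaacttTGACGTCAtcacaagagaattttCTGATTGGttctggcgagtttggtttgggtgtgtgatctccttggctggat
H2-Eb1: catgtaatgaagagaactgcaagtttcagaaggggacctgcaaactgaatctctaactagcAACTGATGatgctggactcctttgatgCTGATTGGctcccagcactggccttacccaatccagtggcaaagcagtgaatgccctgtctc
H2-Eb2: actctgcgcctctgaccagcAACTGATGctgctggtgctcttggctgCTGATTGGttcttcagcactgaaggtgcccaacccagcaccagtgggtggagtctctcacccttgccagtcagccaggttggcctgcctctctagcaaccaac
H2-DMb1: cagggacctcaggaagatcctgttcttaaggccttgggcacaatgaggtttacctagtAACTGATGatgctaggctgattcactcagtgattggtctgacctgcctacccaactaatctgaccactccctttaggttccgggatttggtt

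In H2-Eb1 the X box letters began 89 bases and the Y box letters 62 bases before the gene start. H2-Eb2 had both at 130 and 103 bases, so the distance from one box to the other was 27 bases in each gene. H2-DMb1 had the X box at 92 bases and only the 5-letter core of the Y box, ATTGG, at 61 bases, and H2-DMb2 had the same pair at 121 and 90 bases. From the X box letters to ATTGG the distance was 30 bases in H2-Eb1 and H2-Eb2 and 31 bases in H2-DMb1 and H2-DMb2. H2-Aa had no match to these X box letters, a CRE match 74 bases and a Y box match 51 bases before the start. On both strands, 2.32% of 32851 promoters of 300 bases held the X box letters, 4.10% the Y box, 1.79% the CRE and 37.4% ATTGG, which lies within the Y box. Both the X and the Y box letters were found in 31 promoters (0.0944%), of which H2-Eb1 and H2-Eb2 were the 2 with the boxes 27 bases apart. In the promoters of Flt3, Xcr1, Clec9a and Cd209a neither the X box, the Y box nor the CRE letters were found. The letters searched were chosen after the sequences had been seen, and a match does not show that a protein binds there.

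Total counts ran from 21160690 to 26339251 per library. Ephb2 stood at 9.46, 8.28 and 12.4 CPM in the WT livers, against 6.01, 8.87 and 6.95 CPM in the KO livers. The groups overlapped, and its log2 fold change was -0.46 (SE 0.21; adjusted p = 0.850 in edgeR's quasi-likelihood test, used throughout), and -0.28 without WT replicate 3. CPM here are counts relative to library size, per 1e+06 reads, scaled by TMM factors. Hepatocyte genes were abundant in all libraries, with a mean Alb level of 40410 CPM in the WT livers and of 38730 CPM in the others. The acute phase genes of hepatocytes split the libraries across the genotypes, with a mean of 10.10, 8.10 and 10.57 log2 CPM in the WT livers, against 8.16, 11.16 and 8.31 in the KO livers, replicates 1 to 3. edgeR called 0 of 17083 genes (0% called; 886 genes, 5.19%, at an unadjusted p under 0.05), limma-voom called 0 (881 at an unadjusted p under 0.05) and DESeq2 called 8 of 13176 (0.0607%), none of them among the 10. The labels number the mice within each genotype and say no more on how they relate, and p-values reflect only how far these livers differed.

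All 10 genes had a positive log2 fold change of KO over WT, with a median of 0.36, where 49.0% of all genes tested were positive and their median was -0.005. None passed edgeR's test, with an adjusted p of 0.850 to 0.934. At an unadjusted p under 0.05, Flt3 and Itgae were higher in KO, 2 of 10 where 3.08% of all genes tested were, and 0 of 10 were lower where 2.10% of all genes were. The CPM of all 3 KO libraries lay above all 3 WT libraries for Ciita, Flt3 and Itgae, 3 of 10 genes, and this held for 6.21% of all genes, while 4.90% had all KO libraries below all WT libraries. KO replicate 1 held the highest value of 9 of the 10 genes, and KO replicate 3 that of Xcr1. WT replicate 1 held the lowest value of 5. Without KO replicate 1 the median was 0.11 and 7 of the 10 were positive, so the size of the shift rested in large part on that library. The genes were chosen with earlier results of these data known, and a list of dendritic cell and class II genes had already been seen to lie higher in KO.

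**Figure D1:**
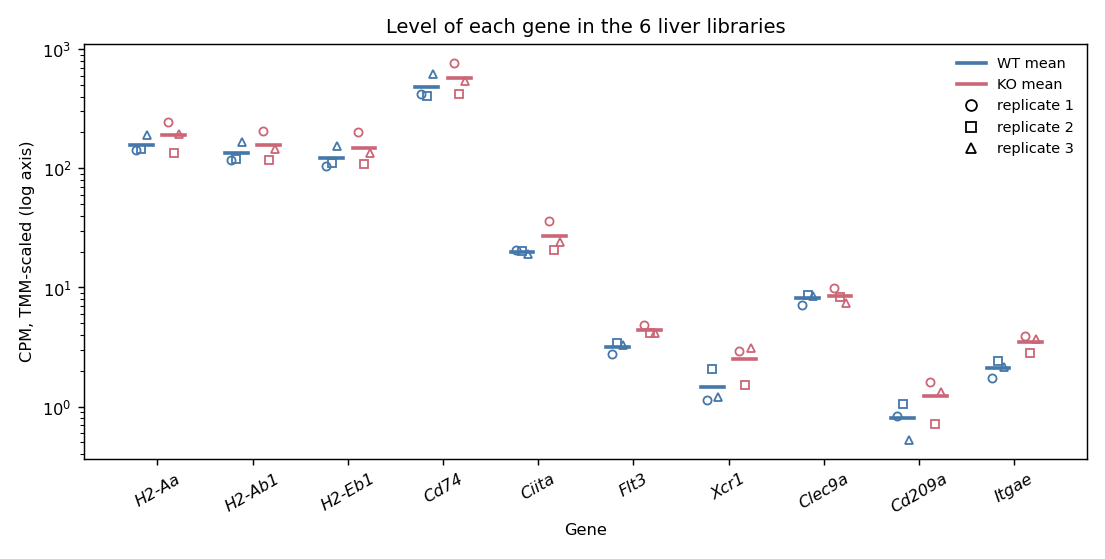
TMM-scaled CPM (log axis) of each of the 10 genes in the 3 WT (blue) and 3 KO (red) libraries, with symbols for the replicate and bars for the group means. Cd74 is the most abundant, and KO replicate 1 (red circles) is the highest library for every gene but Xcr1.

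H2-Ab1, the beta chain of the class II molecule I-A, was measured at 118, 120 and 167 CPM in the WT livers, against 208, 117 and 146 CPM in the KO livers, each in the order of replicates 1 to 3. KO replicate 1 was highest and KO replicate 2 lowest, so the genotypes overlapped over the whole range of WT. The means were 135 ± 27.6 and 157 ± 46.0 CPM (SD, n = 3 each), with a log2 fold change of 0.22 (95% interval -0.29 to 0.73). H2-Aa, its alpha chain partner, was at 142, 144 and 189 CPM in the WT livers, against 244, 135 and 195 CPM in the KO livers. It had a log2 fold change of 0.27, with a 95% interval from -0.22 to 0.77. As for H2-Ab1, the lowest of the 6 values was that of KO replicate 2. H2-Eb1, the beta chain of I-E, stood at 105, 111 and 153 CPM in the WT livers, against 203, 109 and 134 CPM in the KO livers, a log2 fold change of 0.27 (95% interval -0.27 to 0.82). KO replicates 2 and 3 lay within the WT range. These intervals leave room for a small decrease and for a rise of more than 1.5-fold, and the adjusted p of the 3 chains was 0.858 to 0.872 with edgeR.

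The alpha chain partner of H2-Eb1 is annotated in GENCODE M21 as the polymorphic pseudogene H2-Ea-ps. It had 1 read in KO replicate 1 and 0 in the other 5 libraries, where a count of 0 allows up to 3 reads or 0.114 to 0.148 CPM. Some laboratory strains, C57BL/6 among them, are known to lack a working copy, and the strain was not given in the sources used here. H2-Eb2, a class II beta gene with the same box letters as H2-Eb1, averaged 0.717 CPM in the WT and 0.748 CPM in the KO livers. It did not have the profile of H2-Eb1, being lowest in WT replicate 3 (0.239 CPM) and highest in WT replicate 2 (1.22 CPM). Per kilobase of exon, H2-Eb1 was the most abundant of the 3 chains among the 10 genes, with 63.3 ± 13.3 CPM per kb in WT, followed by H2-Ab1 with 52.6 ± 10.8 and H2-Aa with 41.7 ± 6.91 (SD, n = 3 each). The order was the same in each of the 6 libraries. H2-Aa (ENSMUSG00000036594), H2-Ab1 (ENSMUSG00000073421) and H2-Eb1 (ENSMUSG00000060586) lie within chromosome 17 of GRCm38 at 34282744 to 34287823, 34257689 to 34269419 and 34305867 to 34316674.

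Cd74 (ENSMUSG00000024610), the invariant chain, was the most abundant of the 10 genes, with 422, 407 and 613 CPM in the WT livers, against 768, 424 and 542 CPM in the KO livers. Again WT replicate 3 and KO replicates 1 and 3 were the high libraries and the genotypes overlapped. The log2 fold change was 0.27 (SE 0.25; edgeR adjusted p = 0.860), and without KO replicate 1 it was 0.005. Per kilobase, Cd74 reached 286 ± 68.5 CPM in the WT and 344 ± 104 CPM in the KO livers (SD, n = 3 each), above each of the chains. Its ratio to H2-Ab1 per kilobase stayed between 5.18 and 5.68 in all 6 libraries, while either gene alone varied 1.77-fold or more. The ratio of H2-Eb1 to H2-Ab1 stayed between 1.18 and 1.29, and that of H2-Aa to H2-Ab1 between 0.764 and 0.902. The proportions of the 4 RNAs were thus nearly constant from animal to animal, in both genotypes.

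Among the 3625 genes compared, those closest to H2-Ab1 over the 6 libraries were themselves class II genes. Likeness was measured as the root mean square difference between log2 CPM centred on the mean of each gene. The genes compared had a mean of at least 5 CPM and an SD of at least 0.2. Class II genes of lower level, such as H2-Eb2, H2-DMb2 and H2-Ob, were thus left out. The difference of H2-Ob from H2-Ab1 was 0.50. The 5 nearest were H2-Eb1 (0.04), Cd74 (0.05), H2-Aa (0.08), H2-DMb1 (0.08) and H2-DMa (0.11), and the last 2 encode the peptide exchange factor H2-DM. H2-DMb1 stood at 16.2, 15.7 and 20.9 CPM in the WT livers, against 26.1, 16.9 and 18.2 CPM in the KO livers. H2-DMa ran from 12.6 CPM in WT replicate 2 to 25.3 CPM in KO replicate 1. Both were highest in KO replicate 1, as the chains were. Neither the X nor the Y box letters were found for H2-DMa. H2-DMb2, which had the X box letters and ATTGG, ran only from 1.44 CPM in KO replicate 2 to 1.93 CPM in WT replicate 1. Ciita ranked 70th of the 3625, with a difference of 0.22. The plot of centred levels by library shows H2-Aa, H2-Ab1, H2-Eb1 and Cd74 with one common profile that the dendritic cell genes did not share.

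**Figure D2:**
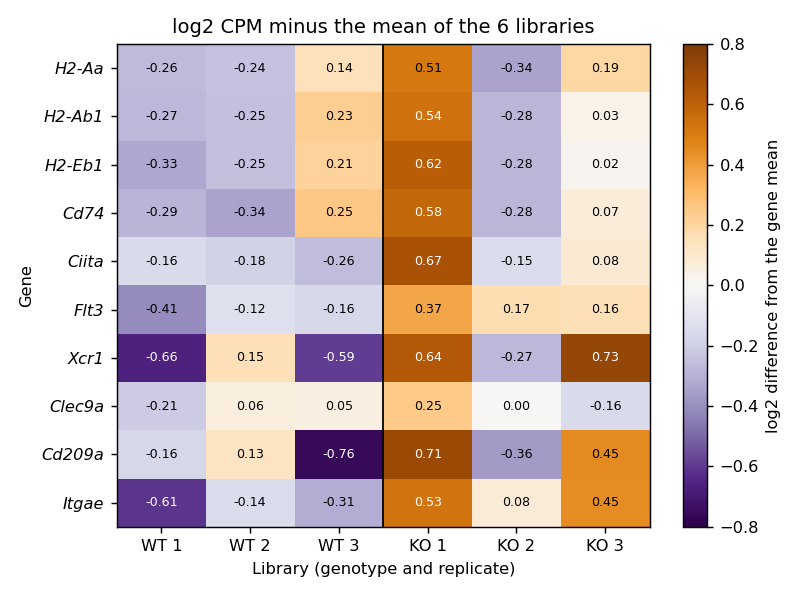
log2 CPM of each of the 10 genes in each library, minus the mean of that gene over the 6 libraries (columns, WT left and KO right of the line; colour and printed value in log2 units). H2-Aa, H2-Ab1, H2-Eb1 and Cd74 share one profile with WT replicate 3 and KO replicate 1 high, while Xcr1 and Cd209a are low in WT replicate 3.

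Ciita, the coactivator of the class II genes, was at 20.5, 20.1 and 19.0 CPM in the WT livers, against 36.2, 20.6 and 24.2 CPM in the KO livers. The WT libraries lay close together (coefficient of variation 3.8%, against 30.4% in KO), and the lowest KO library was just above the highest WT library. The means were 19.8 ± 0.761 and 27.0 ± 8.20 CPM (SD, n = 3 each), a log2 fold change of 0.44 (95% interval -0.01 to 0.89; edgeR adjusted p = 0.850). Without KO replicate 1 it was 0.17 (SE 0.12). Ciita did not follow the chains in WT replicate 3, which held the most H2-Ab1 RNA and the least Ciita RNA of the WT libraries. Ciita RNA per kilobase was 3.06% of that of H2-Ab1 there and 4.46 to 4.71% in the other 5 libraries. Ciita (ENSMUSG00000022504) lies on chromosome 16 at 10480059 to 10528418. It shares 329 exonic bases with Dexi on the other strand, and without a stated strand setting for the counting, reads of both genes could be shared. Dexi, with means of 19.2 and 20.8 CPM, was highest in WT replicate 1 and KO replicate 2, and Ciita in KO replicate 1. The part of Dexi in the Ciita values was not tested.

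Of the other genes that act on class II transcription or surface turnover, 9 were tested. Without Ciita, 5 of these were positive and 4 negative, with a median log2 fold change of 0.01 and a range from -0.33 to 0.25, and 0 passed edgeR's test or an unadjusted p under 0.05. Rfx5, an X box binding subunit of the RFX complex, was at 0.25 (SE 0.14). March1, a ubiquitin ligase that removes class II from the surface, was at -0.33 (SE 0.29), with 38.6 CPM in WT replicate 3 and 16.8 to 21.4 CPM in the other 5 libraries. In the interferon-gamma axis 9 of 12 tested genes were positive with a median of 0.11, and 0 passed either threshold. Ifng itself had 4 reads in KO replicate 1 and 0 in the other 5 libraries, too few to be tested.

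Among genes that load class II, 5 of 9 besides Cd74 were positive, with a median log2 fold change of 0.13. None passed edgeR's test and 1, H2-Ob, had an unadjusted p under 0.05. H2-Ob, the beta chain of the H2-DM inhibitor H2-O, was at 1.24, 2.14 and 1.24 CPM in the WT livers, against 2.35, 2.24 and 2.85 CPM in the KO livers, without overlap. Its log2 fold change was 0.67 (SE 0.28; edgeR adjusted p = 0.850). H2-O is known mainly from B cells and some dendritic cells, and H2-Ob did not have the profile of the chains, being highest in KO replicate 3. Ifi30, the thiol reductase of the endosome, lay lower at -0.42 (SE 0.20), with 45.5, 39.7 and 72.4 CPM in the WT livers, against 41.0, 38.2 and 38.2 CPM in the KO livers. In the class I pathway, which shows peptides from inside the cell and runs in all nucleated cells, 8 of 12 genes were positive with a median of 0.04. Tap1, a peptide transporter, was at 0.26 (SE 0.19) and Psmb9, an immunoproteasome subunit, at 0.23 (SE 0.17), both highest in KO replicate 1. The class I genes H2-K1, H2-D1 and B2m were at -0.13 (SE 0.17), -0.12 (SE 0.17) and -0.10 (SE 0.14), each highest in WT replicate 1.

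**Figure D3:**
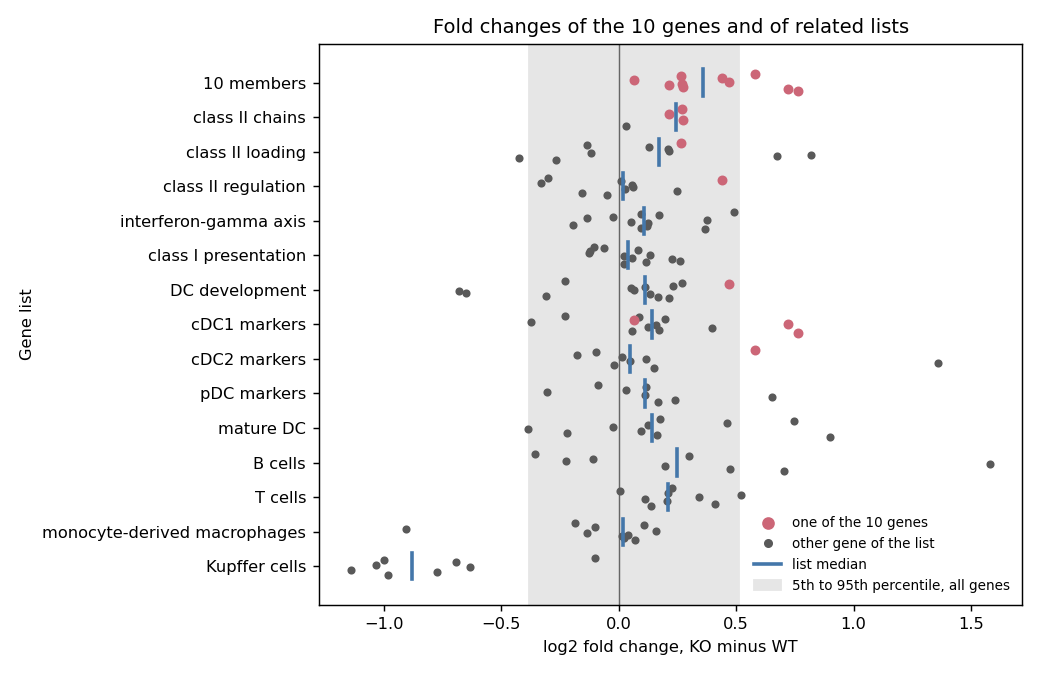
log2 fold changes of KO over WT for the 10 genes (red) and for other genes (grey) of related lists, with list medians in blue (the 10 genes included) and the 5th to 95th percentile of all genes tested shaded. The 10 genes all lie above 0, while the medians of the other presentation and dendritic cell lists lie between 0.02 and 0.24 and all 8 Kupffer cell markers lie below 0.

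Flt3, the receptor for the cytokine that expands dendritic cells, was at 2.77, 3.40 and 3.30 CPM in the WT livers, against 4.84, 4.17 and 4.14 CPM in the KO livers (56 to 81 and 93 to 111 reads). All KO libraries lay above all WT libraries. The means were 3.16 ± 0.338 and 4.38 ± 0.392 CPM (SD, n = 3 each), a 1.39-fold difference and a log2 fold change of 0.47 (95% interval 0.07 to 0.87; edgeR adjusted p = 0.850). With each library left out in turn the log2 fold change stayed between 0.38 and 0.53, and an interval that excludes 0 for 1 gene does not account for the 17083 tested. Flt3 (ENSMUSG00000042817) lies on chromosome 5 at 147330741 to 147400489. The 5 genes nearest to it in profile among 3626 were Creb5 (0.05), Cep131 (0.06), Lama3 (0.07), Il21r (0.08) and Zdhhc1 (0.08), in the same measure. Itgae, Xcr1, Clec9a and Cd209a did not meet its limits of level and spread and could not be listed. Flt3 itself lay below 5 CPM. The differences from Flt3 were 0.17 for Itgae, 0.21 for Clec9a, 0.39 for Xcr1 and 0.40 for Cd209a, against 0.27 for H2-Ab1. H2-Ab1 ranked 675th, so Flt3 and the class II chains did not go together over the libraries as the chains did with each other.

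Of 12 other genes for dendritic cell growth and fate, 8 were positive and 4 negative, with a median of 0.09. None passed edgeR's test, and 1, Nfil3, had an unadjusted p under 0.05 (0.0158 in edgeR) and was lower in KO. Flt3l, the ligand of Flt3, was at 0.23 (SE 0.21), Zbtb46, a transcription factor of conventional dendritic cells, at 0.21 (SE 0.14), and Irf8, the factor that type 1 cells need, at 0.06 (SE 0.11). Nfil3, a basic leucine zipper factor also under circadian control, lay lower, with 46.7, 45.3 and 68.2 CPM in the WT livers, against 34.1, 42.2 and 25.8 CPM in the KO livers and no overlap. Its log2 fold change was -0.65 (SE 0.21), and Klf4, a zinc finger factor of many cell types, was at -0.68 (SE 0.32).

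Itgae, the alpha E integrin chain CD103 of type 1 dendritic cells and of tissue-resident T cells, showed the smallest p of the 10. It was at 1.73, 2.44 and 2.15 CPM in the WT livers, against 3.92, 2.84 and 3.70 CPM in the KO livers (35 to 58 and 75 to 90 reads), without overlap. The means were 2.11 ± 0.354 and 3.49 ± 0.569 CPM (SD, n = 3 each), a 1.66-fold difference and a log2 fold change of 0.72, with a 95% interval from 0.21 to 1.23. The unadjusted p was 0.0115 and the adjusted p 0.850 with edgeR. With each library left out in turn, the log2 fold change was lowest without WT replicate 1 (0.59) and highest without KO replicate 2 (0.85). Itgae (ENSMUSG00000005947) lies on chromosome 11 at 73090583 to 73147446.

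Xcr1, the chemokine receptor that marks type 1 dendritic cells, had the largest log2 fold change of the 10, 0.76 (95% interval -0.06 to 1.59; edgeR adjusted p = 0.850). It was at 1.14, 2.06 and 1.20 CPM in the WT livers, against 2.92, 1.52 and 3.12 CPM in the KO livers (23 to 49 and 40 to 70 reads), so that KO replicate 2 lay below WT replicate 2. Cd209a, a C-type lectin of type 2 dendritic cells, was at 0.842, 1.05 and 0.526 CPM in the WT livers, against 1.61, 0.720 and 1.34 CPM in the KO livers, from 11 to 37 reads. Its log2 fold change was 0.58 (95% interval -0.32 to 1.48), with 0.33 without KO replicate 1 and 0.35 without WT replicate 3. In both genes WT replicate 2 and KO replicates 1 and 3 were the 3 highest libraries, and these were also the 3 with the lowest acute phase RNA. Siglech, a marker of plasmacytoid dendritic cells, had the same 3 highest, with 2.18, 3.23 and 1.87 CPM in the WT livers, against 4.49, 2.24 and 4.81 CPM in the KO livers. Over all genes, too, these 3 libraries were the closest to each other. Their chi-square per degree of freedom was 10.4 to 12.1, against 30.6 to 69.6 in the other pairs. The split was thus not particular to dendritic cell genes, and the share of all genes with these 3 highest was not counted. With the acute phase mean as a covariate, the log2 fold change of Xcr1 was 0.63 (SE 0.22; unadjusted p = 0.0210, adjusted p = 0.778 with edgeR) and that of Cd209a 0.44 (SE 0.29). Xcr1 (ENSMUSG00000060509) lies on chromosome 9 at 123852315 to 123862029 and Cd209a (ENSMUSG00000031494) on chromosome 8 at 3743397 to 3748984.

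Clec9a, the receptor by which type 1 dendritic cells bind the actin of dead cells, did not have the pattern of Xcr1 and Itgae. It was at 7.13, 8.61 and 8.56 CPM in the WT livers, against 9.80, 8.27 and 7.40 CPM in the KO livers, with a log2 fold change of 0.07 (95% interval -0.29 to 0.43; edgeR adjusted p = 0.934). KO replicate 3, the highest library for Xcr1, was the second lowest for Clec9a. Per kilobase, Clec9a reached 2.46 CPM in WT, against 0.511 for Flt3, 0.460 for Itgae and 0.329 for Xcr1. Its ratio to Flt3 per kilobase was 4.82, 4.75 and 4.87 in WT and 3.80, 3.72 and 3.35 in KO, a ratio chosen after the values were seen. Clec9a (ENSMUSG00000046080) lies on chromosome 6 at 129408862 to 129424763 and shares 184 exonic bases, on the same strand, with Clec1b. Clec1b was at 17.1, 16.8 and 26.5 CPM in the WT livers, against 16.7, 16.8 and 11.4 CPM in the KO livers, and how reads in shared exons were counted was not given in the sources used here. Its part in the Clec9a values was not tested.

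Other markers of the same dendritic cell types varied in sign, and none had an unadjusted p under 0.05. Besides Xcr1, Clec9a and Itgae, 7 of 9 type 1 markers were positive, with a median log2 fold change of 0.12 and a range from -0.37 to 0.40. Tlr3 was at 0.17 (SE 0.11) and Cd24a at 0.20 (SE 0.15), both also made by other liver cells, while Batf3, the factor type 1 cells require, was at -0.23 (SE 0.29). Besides Cd209a, 5 of 8 tested type 2 markers were positive, with a median of 0.03. Itgax, the integrin chain CD11c, was at 0.12 (SE 0.14) and Clec10a, a lectin of type 2 cells and macrophages, at -0.18 (SE 0.28). Mgl2, a related lectin, had a log2 fold change of 1.36 with an SE of 0.78, from levels of 0.0478 to 1.20 CPM that overlapped between the genotypes. Markers of plasmacytoid cells (6 of 8 positive, median 0.11) and genes of mature, migrating dendritic cells (7 of 10 positive, median 0.14) held no gene at an unadjusted p under 0.05. Among the latter Ccl22, a chemokine for regulatory T cells, was at 0.75 (SE 0.41) and the costimulatory molecule Cd80 at -0.39 (SE 0.26).

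Class II genes are also read from B cells and macrophages, and Itgae from T cells, so the markers of these cells were measured alongside. The summed CPM of 9 B cell markers ran from 10.9 to 13.5 in WT and from 9.67 to 15.3 in KO, and that of 10 T cell markers from 13.2 to 16.3 in WT and from 12.3 to 22.4 in KO. Both sums were highest in KO replicate 1, the library with the most class II RNA, and no marker was at 0 in every library. All 9 tested T cell markers were positive, with a median log2 fold change of 0.21, led by Lck, a kinase of the T cell receptor (0.41, SE 0.22), and Cd3g (0.52, SE 0.37). Of 8 tested B cell markers 5 were positive, with a median of 0.25, and 1, Cr2, had an unadjusted p under 0.05 (log2 fold change 1.58, SE 0.57; edgeR unadjusted p = 0.0245, adjusted p = 0.850). Cr2, the complement receptor of B cells and follicular dendritic cells, was at 0.495, 0.714 and 0.430 CPM in the WT livers, against 2.31, 0.493 and 2.23 CPM in the KO livers. Its KO values were thus high in replicates 1 and 3 only. The part of B and T cells in the class II and Itgae values was not tested.

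Macrophages also carry class II. Markers of monocyte-derived and lipid-associated macrophages summed to 911 to 1185 CPM in WT and 959 to 1214 CPM in KO, with 6 of 10 positive and a median of 0.02. Cx3cr1 was at 0.16 (SE 0.14) and Ccr2 at 0.11 (SE 0.11), both chemokine receptors of monocytes. All 8 Kupffer cell markers were negative, 2 of them at an unadjusted p under 0.05, with a median of -0.88 and summed CPM of 463 to 1019 in WT and 315 to 561 in KO. Clec4f, a Kupffer cell lectin, was at 102, 60.7 and 144 CPM in the WT livers, against 67.6, 58.5 and 24.1 CPM in the KO livers. WT replicate 3, the WT library with the most class II RNA, also held the most Kupffer cell RNA, and KO replicate 1 held the most of the KO libraries, 561 CPM, below the 618 CPM of WT replicate 1. The part of macrophages in the class II values was not tested. All 6 neutrophil markers were negative too, Cxcr2 and Retnlg at -0.85 (SE 0.64) and -0.86 (SE 0.78).

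Single libraries moved several of the 10 genes. Without KO replicate 1, the log2 fold changes of H2-Ab1 and H2-Eb1 were -0.04 and -0.02, that of H2-Aa was 0.05 and that of Clec9a was -0.05. Those of Itgae, Xcr1, Flt3 and Cd209a were 0.63 (SE 0.25), 0.64 (SE 0.42), 0.39 (SE 0.20) and 0.33 (SE 0.44). The levels of H2-Aa, H2-Ab1, H2-Eb1 and Cd74 in KO replicates 2 and 3 lay within the WT range or close to it, and those of Flt3 and Itgae lay above WT in both. Without KO replicate 2 the median of the 10 genes was 0.49. Of the 10, 6 then had an unadjusted p under 0.05 in edgeR, where 5.18% of the 17357 genes tested in that setting did. Each of the 6 had an adjusted p of 0.839. This was the highest such count with any library left out. Without WT replicates 1, 2 and 3 it was 1, 3 and 2 (over all genes 667 of 17547, 1858 of 17411 and 721 of 17539). Without KO replicates 1 and 3 it was 1 and 2 (over all genes 892 of 17440 and 452 of 17428). A difference between the class II genes and the dendritic cell genes in their response was not tested.

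**Figure D4:**
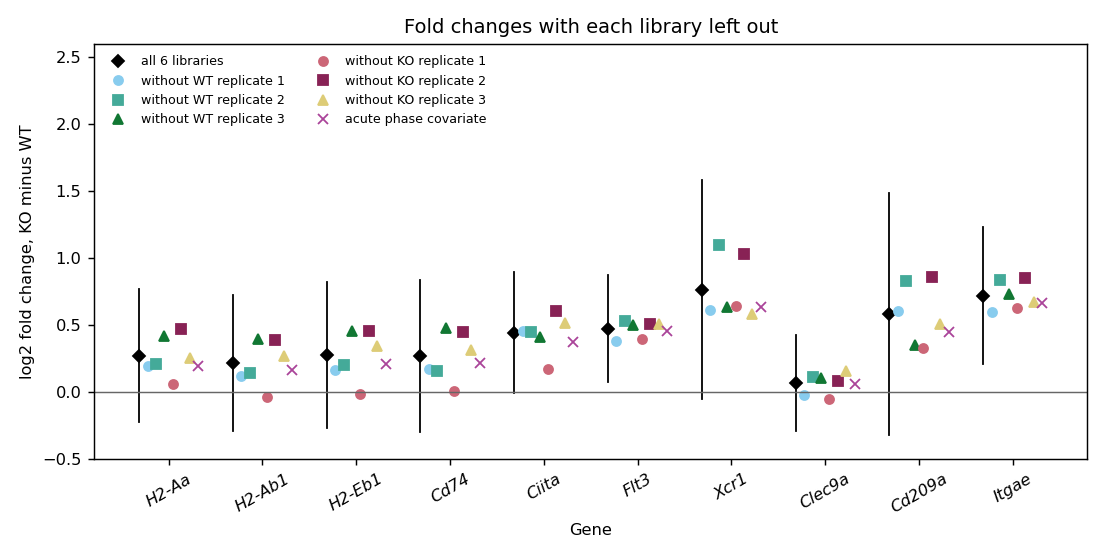
log2 fold change of KO over WT for each of the 10 genes with all 6 libraries (black diamonds, bars are 95% intervals), with each library left out, and with the acute phase mean as a covariate. Leaving out KO replicate 1 (red circles) brings H2-Aa, H2-Ab1, H2-Eb1, Cd74 and Clec9a to between -0.05 and 0.05, while Itgae stays between 0.59 and 0.85 throughout.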

How the data were processed

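Polyadenylated RNA of whole liver was made into directional libraries and sequenced on an Illumina NovaSeq, per the labels' protocols. The authors deposited whole-number counts per Ensembl gene, with no normalization. The submitters' processing notes list STAR 2.7.6a, featureCounts 1.6.3 and DESeq2 1.30.0 as tools, with mm10 and GRCm38 as builds, and assign no roles. Annotation release, strand setting and strain: not given in the sources used here. Class II genes differ in sequence between strains, which can lower mapping.

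Symbols, coordinates and exon lengths came from GENCODE M21 on GRCm38 (52083 of 55416 IDs matched, 94.0%) and promoters from RefSeq on GRCm38.p6. Total counts were 21160690 to 26339251 per library. Every pair of libraries differed beyond sampling noise (chi-square per degree of freedom 10.4 to 69.6). The 3 lowest values were those among WT replicate 2 and KO replicates 1 and 3. Genotype alone was tested with the quasi-likelihood functions of edgeR 4.0.16 (R 4.3.3) after TMM scaling and filterByExpr at a minimum count of 10 and a minimum total of 15. The p-values were adjusted by Benjamini-Hochberg over 17083 genes, at 0.05. Intervals are 95% intervals. Floors are 3 counts and cover counting error only. A prior count of 2 entered log2 levels. The procedure was tested on simulated counts, drawn independently for each gene and library. These did not hold the acute phase split of the real libraries, so they cannot show how the test behaves under it.

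The 10 genes and the lists were chosen with earlier results of these data known. Named were the 10 genes, the 2 further genes with the smallest p per list at a mean of at least 1 CPM, and the 5 genes nearest to H2-Ab1 and Flt3. Other genes named (H2-DMb2, H2-Eb2, H2-Ea-ps, H2-K1, H2-D1, B2m, Ifng, Flt3l, Zbtb46, Irf8, Batf3, Alb, Mgl2, Dexi and Clec1b) were chosen after their values were seen. Not all named genes are reported here. Alternatives were other scalings and filters, DESeq2 1.42.0, limma-voom (limma 3.58.1), the replicate number as a block, an acute phase covariate and leaving out each library.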

Additional observations from a re-analysis of the deposited data

How the results depend on the processing

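None of the 10 genes was called by edgeR, limma-voom or DESeq2 in any setting. Over 140 values of the 10 genes, 136 kept their direction and 4 changed it: Clec9a without WT replicate 1 (-0.0234), and Clec9a, H2-Ab1 and H2-Eb1 without KO replicate 1. With libraries left out in turn, the log2 fold change ran from -0.0389 to 0.396 for H2-Ab1, from -0.0186 to 0.457 for H2-Eb1 and from -0.0504 to 0.155 for Clec9a. That of Ephb2 ran from -0.63 to -0.28. Likewise, the median log2 fold change of the 10 genes ran from 0.11 to 0.49, the number of positive genes from 7 to 10 and the number of genes called over all genes from 0 to 2. Over all genes, 3 were called without a count filter and 8 by DESeq2. Genes at an unadjusted p under 0.05 numbered 886, and 1390 without a filter, 1858 without WT replicate 2 and 452 without KO replicate 3. The causes were not tested. Scaling by library size alone moved the median of all genes to 0.075 and that of the 10 genes from 0.36 to 0.44. The labels do not say whether equal replicate numbers pair the samples. Deviations from the group means correlated at -0.026, -0.438 and -0.313 for the same numbers. With 3 libraries per group these values cannot decide whether the samples were paired. With the replicate block 0 genes were called, 537 had an unadjusted p under 0.05, and the median of the 10 genes was 0.32. DESeq2 gave no adjusted p for 2 of the 10 genes. Cd209a, Xcr1, Flt3 and Itgae rested on 11 to 111 reads per library, which limits their precision.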
